A study of Mus musculus with 2 samples.

Results

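The 500 strongest distal open regions of mouse T helper 2 (Th2) cells were chosen by their fold enrichment over local background in ATAC-seq, an assay that maps accessible DNA by where a transposase can insert adapters. Open regions of 2 libraries that overlapped by at least 1 bp were joined, which gave 43027 regions on chromosomes 1 to 19 that were present in both libraries. Of these, 12185 lay within 1 kb of a start site that GENCODE gives to a protein-coding gene and 30842 did not. These 30842 distal regions were ranked by their highest fold in each library, the 2 ranks were averaged, and the best 500 were kept. The remaining 30342 distal regions are called the other distal regions here. All cells were labelled as primary T-helper 2 cells of the strain C57BL/6NJ. The labels give 1 group of 2 biological replicates taken from different biosamples under a shared donor record, with no treatment or control. Sex is labelled as not collected and age as unknown. Whether the libraries are from different animals is not stated, so differences between them may be technical.

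Th2 cells secrete Il4, Il5 and Il13 and depend on the transcription factor Gata3. Distal open regions in such cells include enhancers, which are bound by sequence-specific factors, and insulator sites, which are bound by the zinc finger protein CTCF. In activated T cells, AP-1 dimers of Fos and Jun proteins bind many enhancers, as do members of the RUNX and ETS families that are present throughout T cell life. The labelled cell type was checked at promoters. All 6 of the T cell and Th2 markers examined (Cd3e, Cd4, Gata3, Il4, Il5 and Il13) had at least 1 joined region within 1 kb of a start site, at a highest fold of 2.75 to 8.20 in replicate 1 and 3.88 to 9.13 in replicate 2. None of 7 markers of B cells, myeloid cells, CD8 T cells and natural killer cells (Ms4a1, Cd79a, Lyz2, Csf1r, Itgam, Cd8a and Ncr1) had one.

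Sequences at the best-ranked regions that hold an AP-1 match are shown first, since of the motifs searched this one differed most, in percentage points, between the 500 and the other distal regions. The motif searched was TGANTCA, where N is any base, and its match is in capitals within 60 bases of the plus strand of GRCm38 (mm10). The regions rank 19, 24 and 35 and have Muc4 (a membrane mucin), Specc1l (a cytoskeletal protein) and 4931406P16Rik as nearest genes.
Muc4, chr16:32750784-32750843, plus strand: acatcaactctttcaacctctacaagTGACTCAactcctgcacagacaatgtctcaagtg
Specc1l, chr10:75222638-75222697, plus strand: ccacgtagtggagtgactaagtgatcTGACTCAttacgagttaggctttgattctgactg
4931406P16Rik, chr7:34322105-34322164, plus strand: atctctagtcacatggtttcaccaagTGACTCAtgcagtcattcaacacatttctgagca
All 3 carry the same 7 letters, TGACTCA. The Muc4 region lay in an exon of a protein-coding gene, the Specc1l region in an intron, and the 4931406P16Rik region between genes.

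The 3 best-ranked regions with a match to the CTCF consensus are shown because such matches were few among the 500. The match is in capitals.
4930467E23Rik, rank 5, chr8:19784538-19784597, plus strand: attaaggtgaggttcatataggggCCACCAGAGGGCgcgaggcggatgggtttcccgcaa
Hsp90b1, rank 31, chr10:86637056-86637115, plus strand: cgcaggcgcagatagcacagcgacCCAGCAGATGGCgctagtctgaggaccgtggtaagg
Stard10, rank 230, chr7:101310766-101310825, plus strand: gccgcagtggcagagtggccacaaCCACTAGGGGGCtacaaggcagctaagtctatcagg
The first 2 of these regions had aligned copies elsewhere in the genome, as described further on, and the Stard10 region had none.

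The RUNX motif searched was TGTGGTT, and its match is in capitals in the regions of rank 21, near the zinc finger gene Zfp324, and rank 26, near Cblb, a ubiquitin ligase that restrains T cell activation.
Zfp324, chr7:12949591-12949650, plus strand: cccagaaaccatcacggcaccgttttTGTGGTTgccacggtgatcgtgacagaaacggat
Cblb, chr16:51691007-51691066, minus strand: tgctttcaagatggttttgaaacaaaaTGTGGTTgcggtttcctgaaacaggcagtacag
The best-ranked RUNX holder, at rank 9 on chromosome 3, lay in a region repeated across the genome. The 3 best-ranked regions with the ETS motif AGGAAGT were those of rank 24 near Specc1l, rank 38 near Efcab12 and rank 41 near Cdrt4. The Specc1l region thus held both an AP-1 and an ETS match.

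Fold enrichment is the authors' value at the summit of each region, and the values fit a summit count plus 1 divided by local background plus 1. Since it chose the 500, their fold is a description. The 500 regions had a median fold of 14.56 in replicate 1 (25th to 75th percentile 13.9 to 15.53, highest 41.6) and 16.16 in replicate 2 (15.39 to 17.24, highest 43.97). The other distal regions had medians of 5.451 (4.104 to 7.554) in replicate 1 and 6.226 (4.518 to 8.638) in replicate 2. The ratio of fold in replicate 2 over replicate 1 had a median of 1.103 among the 500 and 1.11 among the other distal regions. Summit positions lay a median of 5 bp apart between libraries among the 500, against 32 bp among the other distal regions. Counts at the summit, recovered from the deposited fold and p-value of each region, had medians of 117 in replicate 1 and 158.5 in replicate 2 among the 500, against 30 and 41 among the other distal regions. The position of a summit is thus read from more counts in the 500.

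**Figure D1:**
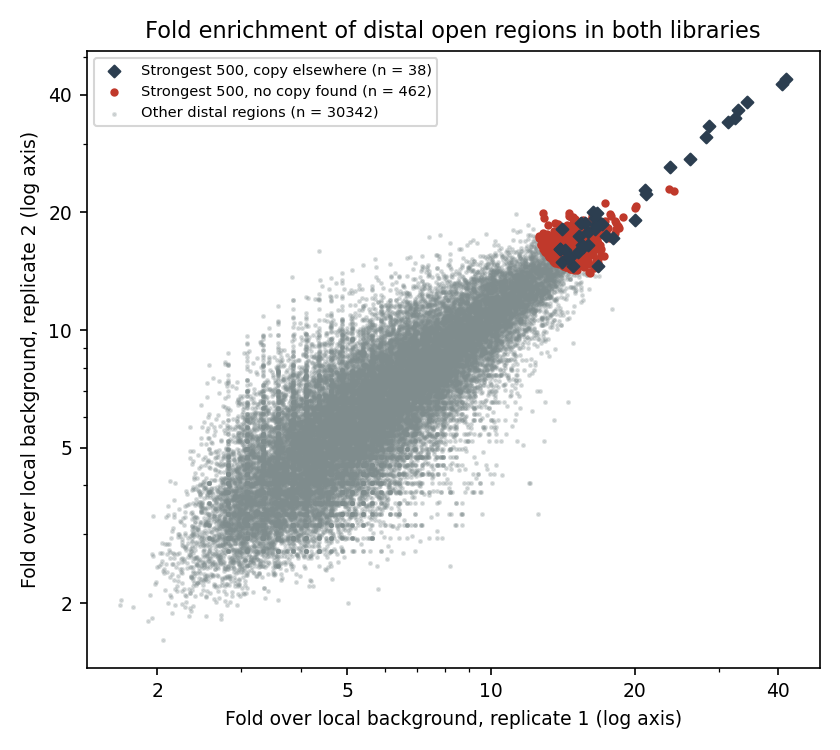
Fold over local background of each distal region in replicate 1 (horizontal, log axis) and replicate 2 (vertical, log axis). Dark diamonds are the 38 of the 500 with an aligned copy elsewhere in the genome, red points the 462 without, and grey points the 30342 other distal regions; the points above a fold of 30 in both libraries are all diamonds.

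The plot of fold in both libraries shows a compact group of regions near the threshold and a thin tail of stronger ones. The 3 regions just inside were near Cpm, Foxn2 and Atp12a, with folds of 12.9, 13.7 and 13.6 in replicate 1 and 16.1, 14.9 and 14.9 in replicate 2. The 3 just outside were near Snx14, Dip2c and Atxn7, with folds of 15.6, 13.3 and 13.0 in replicate 1 and 14.0, 15.2 and 15.8 in replicate 2. Regions on either side of the threshold thus differed little. At rank 500 the 95% counting interval of the fold (exact Poisson on the summit count, background held fixed) ran over 10.8 to 16.8 in replicate 1 and 12.5 to 17.7 in replicate 2, so membership near the threshold was not settled at this depth. At rank 1 the interval was 37.2 to 46.3 in replicate 1 and 39.7 to 48.6 in replicate 2, and at rank 10 it was 20.2 to 27.6 and 22.7 to 30.0. Ranking on replicate 2 alone kept 374 of the 500, and ranking on replicate 1 alone kept 390. Ranking on the authors' −log10 p in place of fold kept 204.

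The 5 regions whose rank differed most between libraries were all in the lower part of the 500. The region near Sertad2 had a fold of 16.2 in replicate 1 (rank 80) and 14.0 in replicate 2 (rank 1121). The region near Ptger4, a prostaglandin E receptor, had 16.02 in replicate 1 (rank 88) and 14.1 in replicate 2 (rank 1085). The other 3 were stronger in replicate 2. The region near Apopt1 had 12.6 and 17.4, the region near Sult5a1 12.6 and 17.2, and the region near Actbl2 12.88 and 19.96, in replicates 1 and 2 in that order. These folds differed by at most 1.55 times, the highest ratio among the 500, so large rank differences came with small differences of fold.

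The regions at ranks 1 to 15 were mostly sequences that the genome holds more than once. A region was counted as having a copy where its 200 bp window, centred between the 2 summits, aligned elsewhere over at least 100 bp at 80% identity or more. The alignment masked soft-masked bases and kept matches with a BLAST E-value of at most 1e-10. A region without a copy is thus one for which this search found none, and need not be single-copy sequence. This held for 38 of the 500 regions (7.60%, Wilson 95% interval 5.59 to 10.3), against 547 of the 30342 other distal regions (1.80%, 1.66 to 1.96). Copies were concentrated at the top of the ranking, with 12 among ranks 1 to 15, 10 among ranks 16 to 50 and 16 among ranks 51 to 500. By the stricter count of windows in which over 50% of the 36-base words occur more than once in the genome, 7 of the 500 (1.40%, 0.680 to 2.86) and 69 of the other distal regions (0.227%, 0.180 to 0.288) were repeated. Soft-masked sequence, the interspersed and simple repeats marked in the assembly, covered over 50% of the window in 2.60% of the 500 (1.53 to 4.40) and 3.67% of the other distal regions (3.46 to 3.89), so such sequence was not more frequent in the 500. The sources used here do not say how reads with several matches were placed, and its part in these folds was not tested.

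The region of rank 1 lay at chr1:100180105-100180426 in an intron of Cntnap5b, a contactin-associated protein, with folds of 41.6 and 43.97 in replicates 1 and 2 and 2 aligned copies. The region of rank 2 lay at chr9:123461798-123462187 in an exon of Lars2, a mitochondrial leucyl-tRNA synthetase, with Limd1 as the nearest start site, folds of 40.7 and 42.6, and 9 aligned copies. The region of rank 3 lay at chr12:78350869-78351176 in an intron of Gphn, the postsynaptic scaffold gephyrin, with folds of 34.4 and 38.4 and 5 copies. These 3 aligned with each other directly or through a shared neighbour, and with the regions of rank 11 (near Zfp945), rank 25 (near Hic2) and rank 29 (near Plekha1), so that 6 of the 500 on 6 chromosomes formed 1 family. The region of rank 11 joined the family because the Gphn window aligned within it, at 87.9% identity over 141 bp. Its own 200 bp window had no aligned copy, so it is counted among the 462 regions without one. The family was defined by alignment within the assembly alone, and a match to the ribosomal RNA repeat unit was not analysed here. The Gphn window matched the Hic2 region at 97.5% identity over 162 bp and the Plekha1 region at 96.9% over 160 bp. A stretch of 80 bases shared by the 3 is shown, with bases that differ from the Gphn region in capitals.
Gphn, chr12:78350886-78350965, plus strand: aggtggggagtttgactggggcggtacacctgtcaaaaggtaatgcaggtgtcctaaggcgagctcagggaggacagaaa
Hic2, chr16:17222348-17222427, plus strand: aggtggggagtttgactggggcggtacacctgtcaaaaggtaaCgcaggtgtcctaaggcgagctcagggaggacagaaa
Plekha1, chr7:130834501-130834580, plus strand: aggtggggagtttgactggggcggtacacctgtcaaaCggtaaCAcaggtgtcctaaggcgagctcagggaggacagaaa
The Hic2 stretch differed from the Gphn stretch at 1 base and the Plekha1 stretch at 3.

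The regions of rank 4 to 10 were also copies. Rank 4, at chr17:70963665-70963895 near the myosin light chain gene Myl12b, had folds of 32.9 and 36.6 and 2 copies. Rank 5, at chr8:19784327-19785258 near 4930467E23Rik and 90 bp from the start of the processed pseudogene Gm10060, had folds of 32.5 and 34.8 and 7 copies. Rank 6, at chr3:62159051-62159489 near Arhgef26, a guanine nucleotide exchange factor, had folds of 31.41 and 34.01 and 3 copies. Rank 7 was the one region of the 500 that shared 36-base words with the mitochondrial genome, and 0 of the other distal regions did. It lay at chr1:24612468-24613540 near Col19a1, had folds of 28.6 and 33.4, and its window matched mitochondrial DNA at 99.5% identity over 200 bp. Rank 8, at chr17:39846149-39847913 near Esp38, had folds of 28.3 and 31.2 and overlapped Rn18s-rs5 (chr17:39846354-39848202), which RefSeq annotates as a pseudogene related to 18S ribosomal RNA. Rank 9, at chr3:5860341-5860819 near Gm8797, had folds of 26.2 and 27.3 and 19 copies, among them the region of rank 13 near Ccdc3 at 97.9% identity. Rank 10, at chr13:44869571-44870022 in an intron of Jarid2 with Dtnbp1 as the nearest start site, had folds of 23.7 and 26.1 and 9 copies. The 1 region outside the best 10 in which over 50% of the 36-base words were repeated was that of rank 43 near Tcp10c, with folds of 17.03 and 17.8. The alignment search found no copy of it, so it is counted among the regions without a copy. Among lower ranks, 4 regions on chromosomes 5 and 17 (ranks 34, 47, 57 and 171) formed another family at 87.4% to 91.0% identity. Without the 38 regions that had a copy, 462 of the 500 remain.

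The 500 regions were wider than the other distal regions, with a median of 853.5 bp (25th to 75th percentile 713.2 to 998.2) against 616 bp (440 to 847). Width comes from the same peaks as the fold that chose the 500, so it is a description. The median width was 877.5 bp at ranks 501 to 1000, 888 bp at 1001 to 2000 and 848 bp at 2001 to 4000. It was 774 bp at ranks 4001 to 8000 and 447 bp at 24001 to 30842. A greater width was thus not particular to the 500. Within the 500, the best-ranked regions were narrower. Ranks 1 to 15 had a median width of 452 bp, ranks 16 to 50 of 821 bp and ranks 51 to 500 of 857 bp. Widths under 500 bp were found in 13 of the 38 regions with a copy (34.2%) and 9 of the 462 without (1.95%). Among the other distal regions the shares were alike, at 34.9% with a copy and 33.8% without. The plot of width against fold shows the narrow, strong regions as a separate arm.

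**Figure D2:**
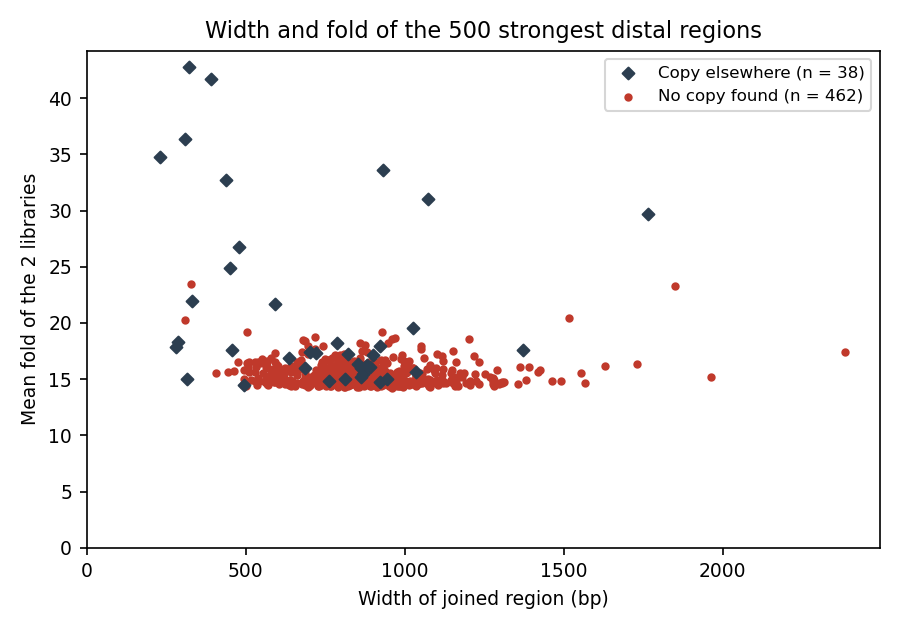
Width of each of the 500 joined regions (horizontal, bp) against the mean of its fold in the 2 libraries (vertical). Dark diamonds are the 38 regions with an aligned copy elsewhere and red points the 462 without; narrow regions with a high fold are mostly diamonds.

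The 500 regions lay farther from genes than the other distal regions. By the midpoint of the 2 summits, 279 (55.8%, 51.4 to 60.1) were between protein-coding genes, against 45.6% (45.1 to 46.2) of the other distal regions. Introns held 209 of the 500 (41.8%, 37.6 to 46.2), against 50.3% (49.7 to 50.8), and exons held 12 (2.40%, 1.38 to 4.15), against 4.09% (3.87 to 4.32). The nearest protein-coding start site was a median of 32.35 kb away (25th to 75th percentile 13.67 to 82.16), against 24.58 kb (10.22 to 58.48). Start sites over 100 kb away were found for 114 of the 500 (22.8%, 19.3 to 26.7), against 13.7% (13.3 to 14.1). Those 1 to 10 kb away were found for 76 (15.2%, 12.3 to 18.6), against 24.4% (23.9 to 24.9). For 70 of the 500 (14.0%, 11.2 to 17.3), no further distal region of any rank lay within 50 kb, against 9.15% (8.83 to 9.48) of the other distal regions. Every one of these intervals was separate between the sets except those for exons. They cover counting error only, and neighbouring regions are not independent. When ranked on −log10 p, the best 500 had a median distance of 24.8 kb, close to that of the other distal regions, so the distance goes with the use of fold.

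**Figure D3:**
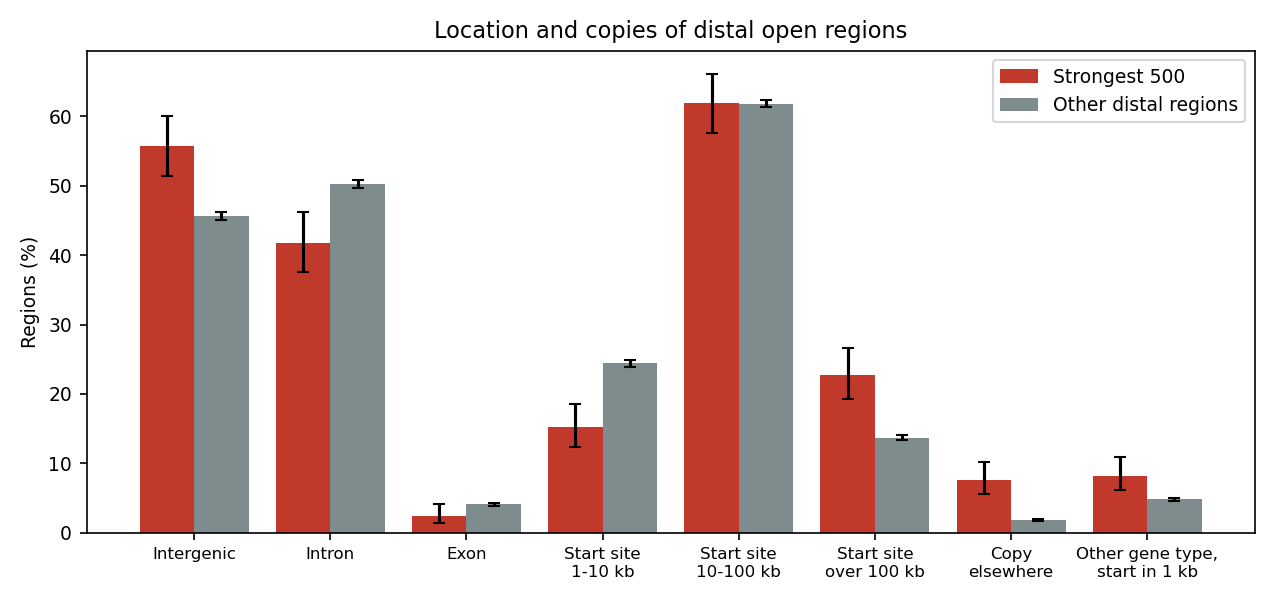
Share of regions (vertical, %) in each location class, at each distance from the nearest protein-coding start site, with an aligned copy elsewhere, and within 1 kb of the start of a gene that is not protein-coding. Red bars are the 500 strongest and grey bars the 30342 other distal regions, with Wilson 95% intervals; red exceeds grey for intergenic location, distances over 100 kb, copies and starts of other gene types.

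A further group lay at starts of genes that are not protein-coding, which the rule did not remove. The summit midpoint was within 1 kb of such a start in 41 of the 500 (8.20%, 6.10 to 10.9), against 4.83% (4.59 to 5.08) of the other distal regions. By rank, the share was 15% at 1 to 100, 8% at 101 to 200, 6% at 201 to 300, 7% at 301 to 400 and 5% at 401 to 500. It was then 6.8% at 501 to 1000, 8.5% at 1001 to 2000 and 6% at 2001 to 4000. A higher share was thus not particular to the 500. The genes at the 41 regions were 15 lincRNAs, 7 antisense genes, 5 processed pseudogenes, 4 snoRNAs, 3 processed transcripts, 2 snRNAs, 2 unprocessed pseudogenes and 3 of other types. Genes for U3, a snoRNA of ribosomal RNA processing, stood out by their position within Tex14, a gene of the bridges between germ cells. Rnu3b3 was at rank 15 (folds 20.1 and 20.8), Rnu3b1 at rank 22 (18.3 and 18.8) and Rnu3b4 at rank 87 (15.5 and 17.3), all on chromosome 11. Rnu2-10, a spliceosomal snRNA gene, was at rank 154 (15.4 and 16.2), and Rn7sk, whose RNA holds the elongation factor P-TEFb inactive, was at rank 292 (13.5 and 16.9). These 5 genes were singled out after their values were seen. Windows of the 41 regions held a median of 11 CpG dinucleotides, against 2 in the other 459 of the 500. Of the 41, 12 (29.3%) held the NFY motif CCAATC, against 47 of the 459 (10.2%), and 9 (22.0%) held the SP motif GGGGCGG, against 17 (3.70%). AP-1 matches were found in 5 (12.2%), against 217 (47.3%). These 41 regions thus held NFY and SP matches more often, and AP-1 matches less often, than the rest of the 500. Of the 41, 11 also had an aligned copy elsewhere, and their part in these differences was not tested.

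AP-1 matches were the most frequent of the 35 motif forms searched among the 500. They were found in the 200 bp windows of 222 regions (44.4%, 40.1 to 48.8), against 8396 of the other distal regions (27.7%, 27.2 to 28.2). In windows 1 kb to either side that overlapped no region, the share was 5.91% around the 500 and 5.36% around the other distal regions. The central base was G or C at 248 of 294 matches in the 500 (84.4%) and at 80.4% of matches in the other distal regions. At least 2 matches were found in 56 of the 500 windows (11.2%), against 4.09%. Matches lay a median of 42 bp from the summit midpoint in the 500 and 36 bp in the other distal regions, and 27.2% against 36.1% lay within 25 bp. The plot of AP-1 positions shows a broad rise over the window in both sets, at a higher level in the 500.

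**Figure D4:**
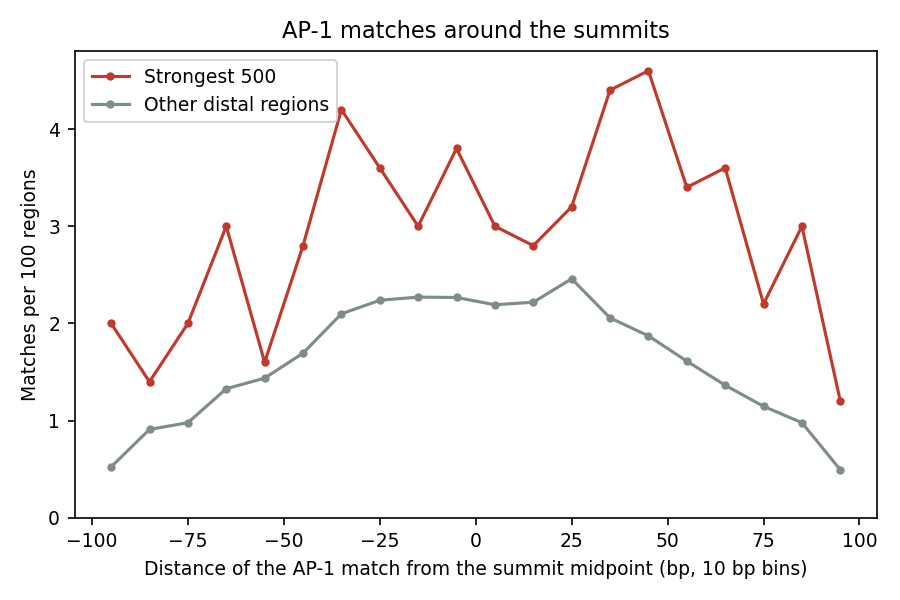
AP-1 matches per 100 regions (vertical) in bins of 10 bp by distance from the summit midpoint (horizontal, bp). The red line is the 500 strongest and the grey line the 30342 other distal regions; the red line lies above the grey one in every bin, with 4.6 against 1.87 per 100 regions in the bin centred at 45 bp.

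The AP-1 share did not step at rank 500. Along the ranking it was 31% at ranks 1 to 100, 49% at 101 to 200, 55% at 201 to 300, 39% at 301 to 400 and 48% at 401 to 500. It was then 40.6% at 501 to 1000, 41.4% at 1001 to 2000, 39.95% at 2001 to 4000, 36.1% at 4001 to 8000, 29.7% at 8001 to 16000, 24% at 16001 to 24000 and 18.1% at 24001 to 30842. The 2 groups described above, regions with a copy and those at starts of other gene types, shared 11 regions. Both held few AP-1 matches and were most frequent at ranks 1 to 100. Of the 38 regions with a copy, 5 (13.2%) held an AP-1 match, against 217 of the 462 without (47.0%). Without regions that had a copy or a start of another gene type, 67 remained at ranks 1 to 100 and 28 of them (41.8%) held a match. The shares in the next 4 steps of 100 ranks, chosen likewise, were 54.4%, 56.7%, 40.2% and 50.5%. Over all ranks to 500, 432 such regions remained and 212 (49.1%, 44.4 to 53.8) held a match, against 28.2% (27.7 to 28.7) of the other distal regions chosen likewise. Ranked on −log10 p, the best 500 held AP-1 matches in 33.2%, against 27.9% of the remaining distal regions, so the gap was smaller on that scale.

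**Figure D5:**
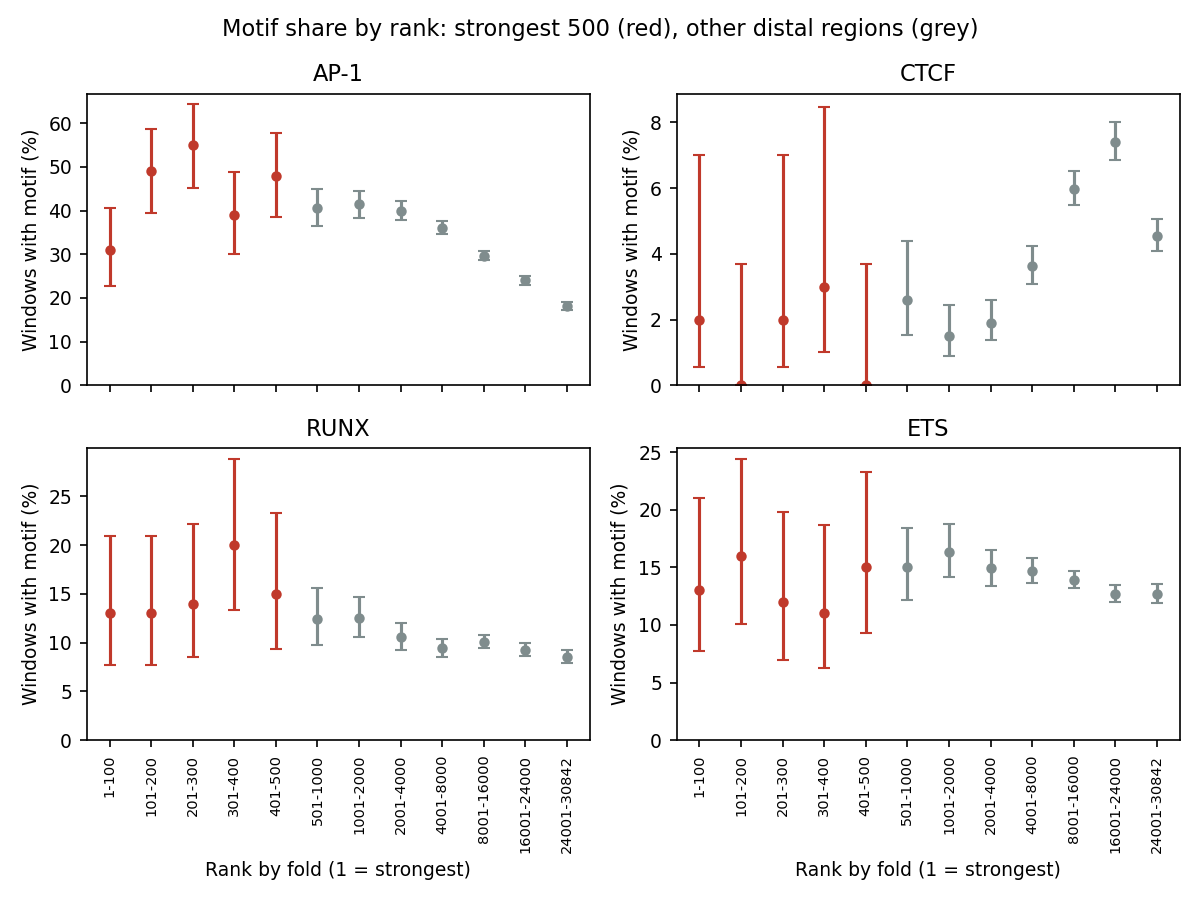
Share of 200 bp windows with a match (vertical, %) for AP-1, CTCF, RUNX and ETS by rank of fold (horizontal, rank 1 is the strongest). Red points are ranks 1 to 500 and grey points the other distal regions, with Wilson 95% intervals; the AP-1 share falls after rank 2000 and is 18.1% at the weakest ranks, the RUNX share is 8.55% there, CTCF is highest at ranks 16001 to 24000, and ETS varies little.

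CTCF matches were rarer in the 500 than in the other distal regions. They were found in 7 of the 500 (1.40%, 0.680 to 2.86), against 1593 (5.25%, 5.00 to 5.51). The looser form of the consensus gave 5.40% against 11.95%, and the short core AGGGGGC gave 1.60% against 5.62%, so the order was the same with all 3 forms. In flanking windows the consensus was found in 0.102% around the 500 and 0.0965% around the other distal regions. By rank, the share was 2.60% at 501 to 1000, 1.5% at 1001 to 2000 and 1.90% at 2001 to 4000, all within the interval of the 500. It was 3.625% at 4001 to 8000, 5.97% at 8001 to 16000, 7.41% at 16001 to 24000 and 4.55% at 24001 to 30842. A low CTCF share was thus not particular to the 500. Besides the 3 regions whose sequences are given above, the holders were near Gna13, 4932438A13Rik, Tef and Snx32, at folds of 13.4 to 14.8 in replicate 1 and 14.9 to 16.6 in replicate 2. Of the 7, 2 had an aligned copy.

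RUNX matches were found in 75 of the 500 (15%, 12.1 to 18.4), against 9.60% (9.27 to 9.93) of the other distal regions. At ranks 501 to 1000 the share was 12.4% and at 1001 to 2000 it was 12.5%, both within the interval of the 500. It was 10.55% at ranks 2001 to 4000. A higher RUNX share was thus not particular to the 500. The flanks had 6.52% around the 500 and 5.16% around the other distal regions. Ranked on −log10 p, the shares were 11.4% and 9.66%. AP-1 and RUNX matches occurred together in 27 of the 500 (5.40%, 3.74 to 7.74), against 2.62% (2.45 to 2.81). ETS matches were found in 67 of the 500 (13.4%, 10.7 to 16.7), against 13.6% (13.2 to 14.0), a difference within the counting error. NFY matches were found in 59 of the 500 (11.8%, 9.26 to 14.9), against 5.64% (5.39 to 5.91), and the flanks of the 500 had 6.62%. Without regions that had a copy or a start of another gene type, NFY was found in 9.26% (6.87 to 12.4), against 5.47% (5.21 to 5.74). None of the AP-1, CTCF, ETS and RUNX motifs was found in 194 of the 500 (38.8%, 34.6 to 43.1), against 51.9% (51.3 to 52.5). A window without a match lacks only these letters, and nothing follows from it about binding.

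The other motifs of T cell factors given here were rarer in the 500 or differed by less than the counting error. The GATA motif AGATAA, bound by Gata3, was found in 10.2% of the 500 (7.84 to 13.2), against 11.6% (11.29 to 12.01) of the other distal regions and 14.2% of the flanks of the 500. The STAT motif TTCNNNGAA was found in 13.8% (11.1 to 17.1), against 12.6% (12.2 to 12.9). The NFAT motif TGGAAAA was found in 1.80% (0.9498 to 3.39), against 3.81% (3.60 to 4.03). The E-box CAGCTG was found in 7.40% (5.42 to 10.03), against 12.4% (12.05 to 12.79). The T-box motif AGGTGTGA was found in 1.60% (0.813 to 3.13), against 0.989% (0.883 to 1.11), and the TCF/LEF motif ATCAAAG in 5.6% (3.90 to 7.97), against 4.26% (4.04 to 4.49). NFAT and this E-box were thus rarer in the 500, while GATA, STAT, T-box and TCF/LEF differed by less than the counting error. Both were also less frequent in the flanks of the 500 than in those of the other distal regions. The flank shares were 4.79% against 5.36% for NFAT and 7.43% against 8.95% for this E-box. The part of surrounding sequence in these differences was not tested. Base composition was similar in both sets, with a median GC content of 47.0% in the 500 and 48.0% in the other distal regions.

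The 500 regions had 468 different nearest protein-coding genes, or 2.25% of the 20780 on these chromosomes. Of these genes, 440 were nearest to 1 region, 24 to 2 regions and 4 to 3 regions, and none to more. The 4 were Tex14, Inhba (a subunit of activin), Cd47 (a surface signal against phagocytosis) and Myc (a transcription factor of cell growth). In 11 cases neighbouring regions of the 500 lay under 25 kb apart. Genes on the 17 lists for T cell subsets, signalling and other cell types were nearest to 26 of the 500 (5.20%, 3.57 to 7.51), against 4.51% (4.278 to 4.745) of the other distal regions. These intervals overlap, so a difference was not detectable at this number of regions. Counted by gene, 22 of 220 listed genes (10%) were nearest to a member of the 500, against 2.25% of all protein-coding genes. Of the listed genes 176 of 220 were nearest to at least 1 distal region of any rank, against 9885 of 20780 of all protein-coding genes. They are given here by role, with fold in replicates 1 and 2, as locations only: the nearest gene need not be the one a region acts on.

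Genes of the Th2 list were nearest to 5 of the 500 (1%), against 0.521% of the other distal regions. For the pan-T list, which also holds Gata3, the order was the other way (0.4% against 0.666%). Counts for single lists are small, and these differences were not tested. Gata3 was nearest to 2 regions, 262 kb downstream of its start (chr2:9615897-9616783, folds 13.8 and 15.2) and 913 kb downstream (chr2:8964792-8965560, 13.9 and 17.2). Maf, an activator of Il4, was nearest to a region 63.4 kb upstream (15.78 and 15.01) and to another 570 kb downstream, in an intron of Wwox (13.4 and 15.3). Bhlhe41, a transcription factor of Th2 cells, was nearest to a region 29.4 kb upstream (12.9 and 16.5) that held both AP-1 and RUNX matches. The Maf region upstream also held both. No region of the 500 had Il4, Il5 or Il13 as its nearest gene.

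Genes of the activation list were nearest to 6 of the 500 (1.20%), against 0.705% of the other distal regions. Myc was nearest to 3, at 371 kb (13.0 and 15.9), 452 kb (15.3 and 15.8) and 776 kb (14.55 and 19.98) downstream. Cd69, an early activation antigen, was nearest to a region 9.16 kb upstream (13.55 and 17.95). The orphan nuclear receptors Nr4a1 and Nr4a3, induced by the antigen receptor, were nearest to regions 7.81 kb upstream (13.3 and 16.9) and 32.9 kb upstream (14.4 and 15.8). Genes of the AP-1, NFAT and NF-κB list were nearest to 2 of the 500 (0.4%), against 0.521% of the other distal regions. Fos was nearest to a region 18.5 kb upstream (chr12:85455023-85455969, 13.8 and 16.3). Nfatc1 was nearest to a region 98.1 kb upstream of its nearest start, in an intron of Atp9b (13.3 and 15.8). The Fos region lay within an element that RefSeq records as a VISTA enhancer (chr12:85454400-85456289). It was 1 of 2 among the 500 that overlapped a functional element of RefSeq (0.400%, against 0.484% of the other distal regions), the other being near D5Ertd579e (chr5:36712782-36713556).

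Genes of other helper subsets were also nearest to members of the 500. For the Th1 list this held for 2 of the 500 (0.4%), against 0.221% of the other distal regions. Il12rb2, a receptor chain of the Th1 pathway, lay next to a region in its intron (15.01 and 16.96), and Ifngr1, a chain of the interferon gamma receptor, to a region 62.1 kb upstream (13.9 and 16.04). Genes of the Th17 list were nearest to 3 of the 500 (0.600%), against 0.297% of the other distal regions. Il17a was nearest to a region 9.79 kb downstream of its start (14.5 and 15.6), Il1r1 to an intronic region (16.05 and 14.75), and Ahr, the aryl hydrocarbon receptor, to a region 106 kb upstream (13.4 and 16.7). Ctla4, an inhibitory receptor, was nearest to a region in its own intron, 9.55 kb upstream of the nearest annotated start (14.7 and 14.3). Genes of the naive and memory T cell list were nearest to 4 of the 500 (0.8%), against 0.719% of the other distal regions. Foxo1 was nearest to a region 287 kb downstream (15.5 and 18.1) and Bach2 to 1 at 58.9 kb upstream (15.7 and 15.7). Foxp1 was nearest to an intronic region (13.8 and 15.6), and Satb1, a chromatin organiser, to 1 at 244 kb upstream (14.4 and 15.7). Socs2, an inhibitor of cytokine signalling, was nearest to a region 43.1 kb downstream (16.4 and 16.1). Gzmk, a granzyme of cytotoxic cells, was nearest to a region 2.73 kb upstream (13.4 and 15.3), and Actb to 1 at 14.2 kb upstream (14.6 and 15.2). The lists of Ctla4, Socs2, Gzmk and Actb had 1 of the 500 each (0.2%), against 0.0626% to 0.293% of the other distal regions. No region had a gene of the B cell, myeloid, mast cell and basophil, non-haematopoietic or follicular helper lists as its nearest gene. These lists were nearest to only 0.0264% to 0.264% of the other distal regions, so a count of 0 among 500 shows no difference.

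The 500 regions were spread over all 19 chromosomes. Chromosome 16 had the highest share of its distal regions among the 500, at 28 of 1234 (2.27%), and chromosome 11 the lowest, at 24 of 2313 (1.04%). Over all 19 chromosomes it was 500 of 30842. These are the extremes of 19 small counts, and differences between chromosomes were not tested.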

How the data were processed

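ATAC-seq was analysed from 1 list of open regions per library, 51557 regions in replicate 1 and 60891 in replicate 2. The authors called regions on each library by itself from its mm10 alignment, per the file headers, with no pooling. The deposited values used were the fold enrichment (a ratio), the −log10 p-value and the −log10 q-value of each region; the deposited score was not used. For the caller, its settings and the handling of reads with several matches, nothing is given in the sources used here. Region names carry the words ASTARR and insert, which no source used here explains, so whether fragments of a cloned library were sequenced is not known. Depth is not stated. Summit counts were recovered from fold and p by a Poisson model, with whole numbers returning the deposited p within 0.001 for all 500 regions, and their intervals cover counting error only.

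The members, the 17 gene lists, the motifs and the alternatives were chosen with earlier results of these data known, and the definition of aligned copies after values were seen. No test was made, since the members were chosen by fold and there was 1 group. Shares have Wilson 95% intervals. The genome was GRCm38.p6 from RefSeq with the GENCODE M21 basic annotation. A start site counted as near when it lay within 1 kb of any base of the region. Both strands of a 200 bp window at the midpoint of the summits were searched for motifs. Overlapping matches of different motifs were each counted. The CTCF, NF-κB and other forms of 10 or more letters are given by name alone. Copies were found with BLAST 2.17.0, and other values were computed with pandas 2.3.3 and scipy 1.17.1. Scripts were tested on simulated data.

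Named regions and genes were the best 10, list genes nearest to a member, genes nearest to 4 or more members (there were none), the 5 largest rank differences, the 3 regions on each side of rank 500, the 3 best holders of each of 4 motifs and those with repeated sequence. Genes and regions outside this rule were chosen after their values were seen. 1 marker gene of the cell type check is not reported here.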

Additional observations from a re-analysis of the deposited data

How the results depend on the processing

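Ranking on −log10 p in place of fold kept 204 of the 500 regions, with a mean of the 2 median folds of 13.9, a median width of 1016 bp, a median distance of 24.8 kb, an AP-1 share of 33.2% and a RUNX share of 11.4%. Leaving out either library gave, in ranges, 374 to 390 of the 500, a median width of 818 to 852 bp, a fold of 15.3, introns at 41.2% to 42.4%, repeated sequence at 1.40% to 1.80%, a distance of 31.2 to 33.8 kb, 16 to 21 list genes, and shares of 1.20% to 1.80% for CTCF, 43.2% to 48.2% for AP-1, 12.8% to 13.6% for ETS and 12.2% to 14.4% for RUNX. The best 250 had 250 of the 500 by construction, a median width of 820 bp and 7 list genes, and the best 1000 had 34. Repeated sequence fell to 0.00% and 0.200% when repeated windows or aligned copies were left out, as those settings remove it. The loose CTCF consensus gave 5.40%. Windows of 100 bp gave 29.8% for AP-1, 6.80% for ETS and 8.60% for RUNX, and whole regions gave 60.2%, 30.0% and 29.2%, since more or fewer bases were searched; the other distal regions had 18.7%, 8.24% and 5.49% in windows of 100 bp and 42.2%, 27.7% and 21.6% over whole regions. The causes of the remaining changes were not tested. The settings for aligned copies and for start sites measured from the region centre were chosen after seeing the data. No paired analysis was possible because there was 1 group. The 2 libraries may share an animal, and fold depends on a local background that differs between regions.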
